A study of Homo sapiens with 8 samples.

Results

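Expression was followed in 10 genes of the integrated stress response in HT29 cells given 1 of 3 small molecules. They are the transcription factors ATF4, ATF5, CEBPB, CEBPG, DDIT3, ATF3 and JDP2, the chromatin-associated stress protein NUPR1, the pseudokinase TRIB3 and the glutathione-degrading enzyme CHAC1. The genes were chosen by symbol, and all 10 were found among the 18937 genes of the authors' tables and among the 16449 genes tested.

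HT29 is an established human colorectal adenocarcinoma line. RNA was sequenced after treatment with ICG-001 at 10 µM, with CWP232228 at 1.5 µM, with YB-0158 at 0.3 µM or with the vehicle DMSO alone at 0.1%, and each of the 4 groups has 2 libraries. Exposure was 48 h, apart from replicate 2 of ICG-001 and replicate 2 of CWP232228, which are labelled 49 h. ICG-001 is a peptidomimetic known as a ligand of the coactivator CREBBP, CWP232228 is known as an inhibitor of beta-catenin and TCF activity, and YB-0158 was described as a peptidomimetic aimed at the RNA-binding protein Sam68. Each compound was given at a single dose, and the doses differ, so every difference between compounds below is one between groups as dosed. No label says that replicates were separate cultures, so p-values rest on a spread between libraries that may be only technical.

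In the integrated stress response, kinases that sense misfolded protein, amino acid shortage, haem shortage or double-stranded RNA phosphorylate the translation factor eIF2alpha. General translation then slows, while the mRNA of ATF4 is translated more efficiently through its upstream reading frames, so ATF4 protein can change without its mRNA. ATF4 binds DNA as a dimer with C/EBP family members at composite C/EBP-ATF response elements, and its target genes include DDIT3 (CHOP), ATF3, TRIB3 and CHAC1.

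The element TGATGNAA was searched on both strands of RefSeq promoter windows of GRCh38.p14, which run from 250 bases before to 50 bases after an annotated start. Windows were found for 9 of the 10 genes, 20 windows in all, with none for NUPR1. The element was present in 4 of these windows, 1 each for CHAC1, CEBPG, JDP2 and ATF3, and in 3.62% of all 35116 windows. Of 27 other ATF4 target genes with a window, 10 had a match. The matches are shown because these are the letters that ATF4 and C/EBP dimers are known to bind. Each line gives 30 bases of the plus strand, with the matched letters in capitals:
CHAC1: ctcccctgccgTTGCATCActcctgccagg
CEBPG: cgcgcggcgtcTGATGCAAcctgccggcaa
JDP2: atagccggggcTGATGCAAcccgtcccgcc
ATF3: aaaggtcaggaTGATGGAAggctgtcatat
They lie at chr15:40953251-40953280 (CHAC1), chr19:33374060-33374089 (CEBPG), chr14:75427995-75428024 (JDP2) and chr1:212565205-212565234 (ATF3). Relative to its RefSeq start, the element spans positions -209 to -202 in CHAC1, where it reads in the opposite direction. It spans -42 to -35 in CEBPG, -16 to -9 in JDP2 and -191 to -184 in ATF3. The start of the CEBPG window lies nearest to transcript CEBPG-202, at 199 bases, which held 5.1% to 92.6% of the CEBPG reads matched here. CEBPG-201, with 7.41% to 94.9% of these reads, starts further upstream, at position 33373330. The ATF3 window belongs to the upstream start, near transcript ATF3-203, which held between 0% and 12.4% of that gene's reads in a library. The start of the JDP2 window lies nearest to transcript JDP2-204, at 195 bases, which held 5.87% to 12.1% of JDP2 reads. The main transcript JDP2-201, with 67% to 83.4%, starts at position 75432134, outside the windows searched. The CHAC1 element lies inside an exon of transcript CHAC1-201, which starts further upstream, and upstream of CHAC1-204, the main transcript here.

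DDIT3 had no TGATGNAA in its windows but held TGACTCA, the binding letters of AP-1 (JUN and FOS dimers), which occur in 4.95% of all windows. Its 250 bases before the start of transcript DDIT3-201, chr12:57520518-57520767 on the minus strand, are shown because DDIT3 is the best known pro-apoptotic member of the group, with TGACTCA in capitals at positions -238 to -232:
DDIT3: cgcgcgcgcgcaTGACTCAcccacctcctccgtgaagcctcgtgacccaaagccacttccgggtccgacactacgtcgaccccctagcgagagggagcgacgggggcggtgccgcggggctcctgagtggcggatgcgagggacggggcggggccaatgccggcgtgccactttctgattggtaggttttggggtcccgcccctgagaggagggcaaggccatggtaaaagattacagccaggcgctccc
A window of ATF5 also held TGACTCA. None of the 20 windows held the cyclic AMP response element TGACGTCA, found in 1.85% of all windows. The windows do not reach the annotated start of every main transcript. The nearest start searched lay 6348 bases from that of ATF3-202 (58.4% to 75.4% of ATF3 reads) and 678 bases from that of TRIB3-201 (98.2% to 99.4% of TRIB3 reads). DDIT3-206, with 40.4% to 82.2% of DDIT3 reads, starts further upstream, at position 57521737, outside the windows searched. DDIT3-201, whose upstream bases are shown above, held 0% to 33.7% of DDIT3 reads. A missing match therefore holds only for the windows searched.

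The libraries held between 29071547 and 58489118 estimated reads. Of 11 colorectal epithelial markers, 10 were above 1 CPM (counts scaled to the library size) in every library, and their summed level was 12200 to 12800 CPM with ICG-001, 12000 to 12400 CPM with CWP232228 and 14000 to 14100 CPM with YB-0158, against 15800 to 17600 CPM with DMSO. KRT8 (5630 to 8770 CPM) and KRT18 (3200 to 5260 CPM) had the highest levels of the epithelial markers and weigh most in this sum. Fibroblast markers summed to 4.38 to 6.06 CPM and endothelial markers to 0.866 to 1.75 CPM, and COL1A2 was at 0 in all libraries. The leukocyte list summed to 2510 to 2800 CPM, of which LYZ alone had 2500 to 2790 CPM, while CD3E was at 0 and PTPRC reached at most 0.0328 CPM. The part of the epithelial marker difference in the results below was not tested, and in bulk RNA fewer cells of a type cannot be told apart from less RNA per cell. The log2 difference between the replicates of a group had an SD of 0.12 under ICG-001, 0.13 under CWP232228 and 0.11 under YB-0158, against 0.3 under DMSO, so the DMSO libraries were the least alike. In every group the difference of a gene between replicate 2 and replicate 1 followed its GC content, with a Spearman rho of -0.78 under ICG-001, -0.58 under CWP232228 and -0.55 under YB-0158, against 0.59 under DMSO (across 8568 genes, which are not independent). The log2 fold changes against DMSO followed GC content as well, with a rho of -0.42 under ICG-001, -0.57 under CWP232228 and -0.38 under YB-0158 across 16449 genes.

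Against DMSO, 8 of the 10 genes were called higher and 0 lower with ICG-001, 7 were called higher and 0 lower with CWP232228, and 8 were called higher and 1 lower with YB-0158 (edgeR quasi-likelihood test, Benjamini-Hochberg adjusted p under 0.05 over all genes). Of all genes tested, 24.8% were called higher with ICG-001, 21.6% with CWP232228 and 21.7% with YB-0158, and 48.8%, 42.8% and 43.8% were called in either direction. Lower calls made up 24% of all genes with ICG-001, 21.2% with CWP232228 and 22.1% with YB-0158. A rise of at least 1 on the log2 scale was called for 7 of the genes with ICG-001, where 6.37% of all genes reached it. It was called for 4 with CWP232228, where the background was 3.95%, and for 7 with YB-0158, where it was 5.51%. The median log2 fold change of the 10 genes was 1.67 with ICG-001, 0.71 with CWP232228 and 1.66 with YB-0158, and the median of all genes tested was 0.026, 0.038 and 0.018. The 3 comparisons share the DMSO libraries and are not independent of each other.

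**Figure D1:**
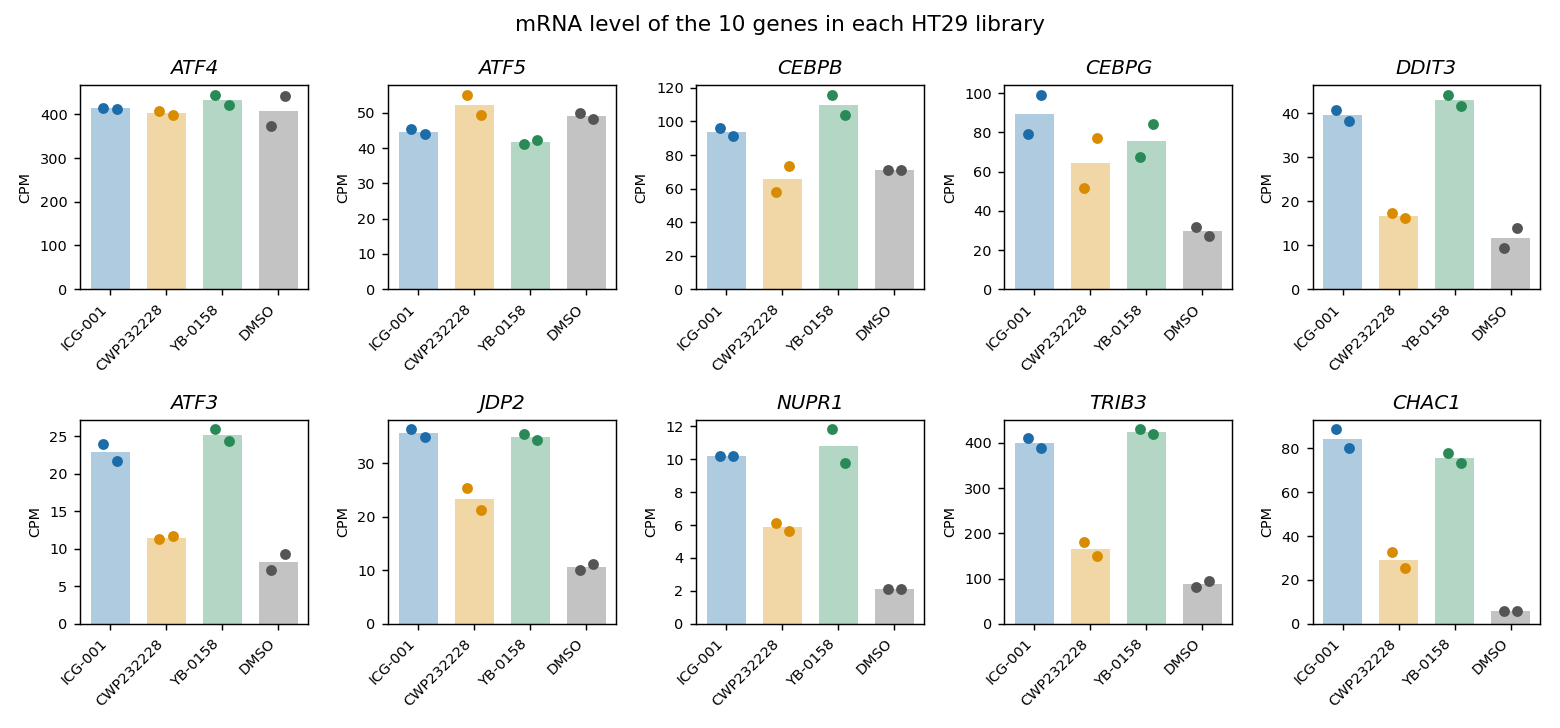
mRNA level (CPM, linear axes from 0) of the 10 genes in each library, as points, with the group mean as a bar, for ICG-001, CWP232228, YB-0158 and DMSO. TRIB3, CHAC1, NUPR1 and JDP2 were higher in all 6 compound libraries than in both DMSO libraries, while ATF4 lay between 373 and 445 CPM throughout.

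ATF4, the translationally controlled effector of the pathway (chromosome 22, 39519695 to 39522685), was the most abundant of the 10 mRNAs per transcript length. It had 415 and 412 CPM with ICG-001, 408 and 398 CPM with CWP232228 and 445 and 421 CPM with YB-0158, against 373 and 443 CPM with DMSO. The libraries of each compound overlapped with those of DMSO, whose own values lay furthest apart. The fold was 1.01 with ICG-001 (95% interval 0.882 to 1.16, adjusted p = 0.871), 0.988 with CWP232228 (0.859 to 1.14, adjusted p = 0.883) and 1.06 with YB-0158 (0.923 to 1.22, adjusted p = 0.459). With a correction for GC content and length, ATF4 was instead called higher with ICG-001, at 0.17 on the log2 scale (adjusted p = 0.029), and with YB-0158, at 0.21 (adjusted p = 0.0118). Without DMSO replicate 2, ATF4 was also called with YB-0158, at 0.20 (adjusted p = 0.0324). Processed copies of ATF4 elsewhere in the genome took at most 7.01 estimated reads in any library.

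Of the other C/EBP and ATF partners, CEBPG, a C/EBP family member that lacks a classical activation domain and dimerises with ATF4, was higher with all 3 compounds. Only 40.6% of the authors' mean count for this gene lies in transcripts that could be matched here, so its level is given from the authors' FPKM (fragments scaled to transcript length and library size). CEBPG had 82.1 and 82.1 FPKM with ICG-001, 51.4 and 50 FPKM with CWP232228 and 81.5 and 83.1 FPKM with YB-0158, against 30 and 30.3 FPKM with DMSO. No compound library overlapped with DMSO, and the CWP232228 libraries lay between DMSO and the others. On log2(FPKM + 0.5), limma gave 1.43 ± 0.069 (SE) with ICG-001 (adjusted p = 0.000239), 0.74 ± 0.069 with CWP232228 (adjusted p = 0.007) and 1.43 ± 0.069 with YB-0158 (adjusted p = 0.000304). In the matched counts the log2 fold change was 1.60 ± 0.23 with ICG-001 (adjusted p = 0.00156), 1.13 ± 0.23 with CWP232228 (adjusted p = 0.00885) and 1.36 ± 0.23 with YB-0158 (adjusted p = 0.00341). These counts lost the CWP232228 call without DMSO replicate 1 (1.25, adjusted p = 0.059), without DMSO replicate 2 (1.01, adjusted p = 0.12) and with the GC and length correction (0.55, adjusted p = 0.0891). They lost the YB-0158 call without DMSO replicate 2 (1.25, adjusted p = 0.0693).

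CEBPB, a C/EBP factor of inflammatory and stress signalling (chromosome 20, 50190734 to 50192689), had 96.1 and 91.6 CPM with ICG-001, 57.7 and 73.4 CPM with CWP232228 and 116 and 104 CPM with YB-0158, against 71.1 and 71.3 CPM with DMSO. The ICG-001 and YB-0158 libraries were all above DMSO, while the CWP232228 libraries lay on either side. CEBPB rose 1.32-fold with ICG-001 (log2 0.40 ± 0.11, adjusted p = 0.0185) and 1.54-fold with YB-0158 (0.63 ± 0.11, adjusted p = 0.00276). With CWP232228 the fold was 0.92 (95% interval 0.769 to 1.10, adjusted p = 0.419). The ICG-001 call was lost without DMSO replicate 2 (0.39, adjusted p = 0.0634), without ICG-001 replicate 1 (0.37, adjusted p = 0.0923) and without ICG-001 replicate 2 (0.44, adjusted p = 0.0587). Of its 1956 exonic bases, 231 also lie in the antisense gene CEBPB-AS1, and the library kit does not mark strand, so reads there cannot be assigned to either.

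ATF5, an ATF4-related factor that is also translationally controlled and acts in the mitochondrial stress response, moved little. It had 45.4 and 43.9 CPM with ICG-001, 55.2 and 49.3 CPM with CWP232228 and 41.2 and 42.3 CPM with YB-0158, against 49.9 and 48.3 CPM with DMSO. It fell with YB-0158, by 0.23 on the log2 scale (SE 0.083, adjusted p = 0.0486), where 22.1% of all genes were called lower. That call was lost with the replicate number as a block (-0.23, adjusted p = 0.0621) and with the DESeq2 Wald test (-0.24, adjusted p = 0.0557). It was also lost with limma on log2(FPKM + 0.5) (-0.22, adjusted p = 0.122). The same held for edgeR on length-scaled counts (-0.21, adjusted p = 0.126) and on only the 2 groups compared (-0.23, adjusted p = 0.109). With 1 library of the comparison left out, the log2 fold change of ATF5 ran from -0.27 to -0.2. The GC and length correction turned its sign (0.046, adjusted p = 0.629) and gave a call of higher with CWP232228 (0.43, adjusted p = 0.00304, against 0.09 and adjusted p = 0.407 without it). ATF5 shares 626 of 2954 exonic bases with NUP62 on the other strand.

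Among the stress-induced bZIP factors, DDIT3, which promotes cell death in prolonged stress (chromosome 12, 57516588 to 57521737), had 40.8 and 38.2 CPM with ICG-001, 17.2 and 16.1 CPM with CWP232228 and 44.2 and 41.6 CPM with YB-0158, against 9.42 and 13.9 CPM with DMSO. All compound libraries were above DMSO, those of CWP232228 by the smallest margin. DDIT3 rose 3.40-fold with ICG-001 (95% interval 2.65 to 4.36, adjusted p = 9.35e-05) and 3.69-fold with YB-0158 (2.87 to 4.74, adjusted p = 8.24e-05). With CWP232228 the rise was 1.43-fold (1.11 to 1.85, adjusted p = 0.031). That call was lost with the replicate number as a block (log2 0.52, adjusted p = 0.0523) and with limma on log2(FPKM + 0.5) (0.51, adjusted p = 0.0929). It was also lost with edgeR on length-scaled counts (0.51, adjusted p = 0.093) and on only the 2 groups compared (0.51, adjusted p = 0.0934). With 1 library of the comparison left out, the log2 fold change ran from 0.28 to 0.81. Of its 1307 exonic bases, 355 overlap MARS1 on the other strand.

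ATF3, an early stress factor that often represses its targets, followed a like pattern. It had 24 and 21.7 CPM with ICG-001, 11.3 and 11.7 CPM with CWP232228 and 25.9 and 24.3 CPM with YB-0158, against 7.2 and 9.37 CPM with DMSO. ATF3 rose 2.76-fold with ICG-001 (2.24 to 3.40, adjusted p = 9.33e-05), 1.39-fold with CWP232228 (1.12 to 1.73, adjusted p = 0.0233) and 3.03-fold with YB-0158 (2.46 to 3.74, adjusted p = 7.43e-05). The rise with CWP232228, 0.48 on the log2 scale, was not called under some other settings. It was 0.26 with limma on log2(FPKM + 0.5) (adjusted p = 0.291), also after leaving out genes under 1 FPKM (0.26, adjusted p = 0.254). It was 0.27 with edgeR on length-scaled counts (adjusted p = 0.278). With edgeR on only the 2 groups compared it was 0.46 (adjusted p = 0.0799). The CWP232228 call was lost without DMSO replicate 1 (log2 0.31, adjusted p = 0.0593), without CWP232228 replicate 1 (0.51, adjusted p = 0.0725) and without CWP232228 replicate 2 (0.45, adjusted p = 0.115).

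JDP2, a repressive partner of JUN and ATF factors, had 36.3 and 34.8 CPM with ICG-001, 25.3 and 21.3 CPM with CWP232228 and 35.5 and 34.4 CPM with YB-0158, against 10 and 11.2 CPM with DMSO. All 6 compound libraries lay above DMSO. JDP2 rose 3.34-fold with ICG-001 (2.80 to 3.98, adjusted p = 2.1e-05), 2.19-fold with CWP232228 (1.83 to 2.61, adjusted p = 0.000642) and 3.28-fold with YB-0158 (2.75 to 3.91, adjusted p = 2.52e-05). NUPR1, a small stress protein known from pancreatitis models, had the lowest counts of the 10 genes, at 10.2 and 10.2 CPM with ICG-001, 6.12 and 5.61 CPM with CWP232228 and 11.8 and 9.78 CPM with YB-0158, against 2.12 and 2.09 CPM with DMSO. Its DMSO values rest on 61 and 59 estimated reads. NUPR1 rose 4.85-fold with ICG-001 (3.86 to 6.08, adjusted p = 1.99e-05), 2.79-fold with CWP232228 (2.20 to 3.52, adjusted p = 0.000642) and 5.13-fold with YB-0158 (4.09 to 6.44, adjusted p = 2.17e-05).

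TRIB3 and CHAC1 are not DNA-binding factors but are standard readouts of ATF4 activity. TRIB3, a pseudokinase that restrains AKT signalling and feeds back on ATF4 and DDIT3 (chromosome 20, 362835 to 397559), had 411 and 389 CPM with ICG-001, 181 and 151 CPM with CWP232228 and 430 and 419 CPM with YB-0158, against 82 and 95.3 CPM with DMSO. It rose 4.51-fold with ICG-001 (3.80 to 5.35, adjusted p = 7.42e-06), 1.87-fold with CWP232228 (1.58 to 2.21, adjusted p = 0.000956) and 4.79-fold with YB-0158 (4.03 to 5.68, adjusted p = 6.78e-06). CHAC1, a gamma-glutamyl cyclotransferase that degrades glutathione (chromosome 15, 40952962 to 40956519), had 88.5 and 79.9 CPM with ICG-001, 32.6 and 25.4 CPM with CWP232228 and 77.9 and 73.3 CPM with YB-0158, against 6.08 and 5.73 CPM with DMSO. No compound library came near the DMSO level. CHAC1 rose 14.3-fold with ICG-001 (11.4 to 17.8, adjusted p = 1.78e-06), 4.91-fold with CWP232228 (3.95 to 6.11, adjusted p = 8.48e-05) and 12.8-fold with YB-0158 (10.3 to 15.9, adjusted p = 2.09e-06). By size of fold change it stood at place 97 of 16449 genes with ICG-001, 163 with CWP232228 and 95 with YB-0158. The calls of TRIB3, CHAC1, NUPR1 and JDP2 against DMSO held with each of the 4 libraries of a comparison left out in turn, for all 3 compounds.

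**Figure D2:**
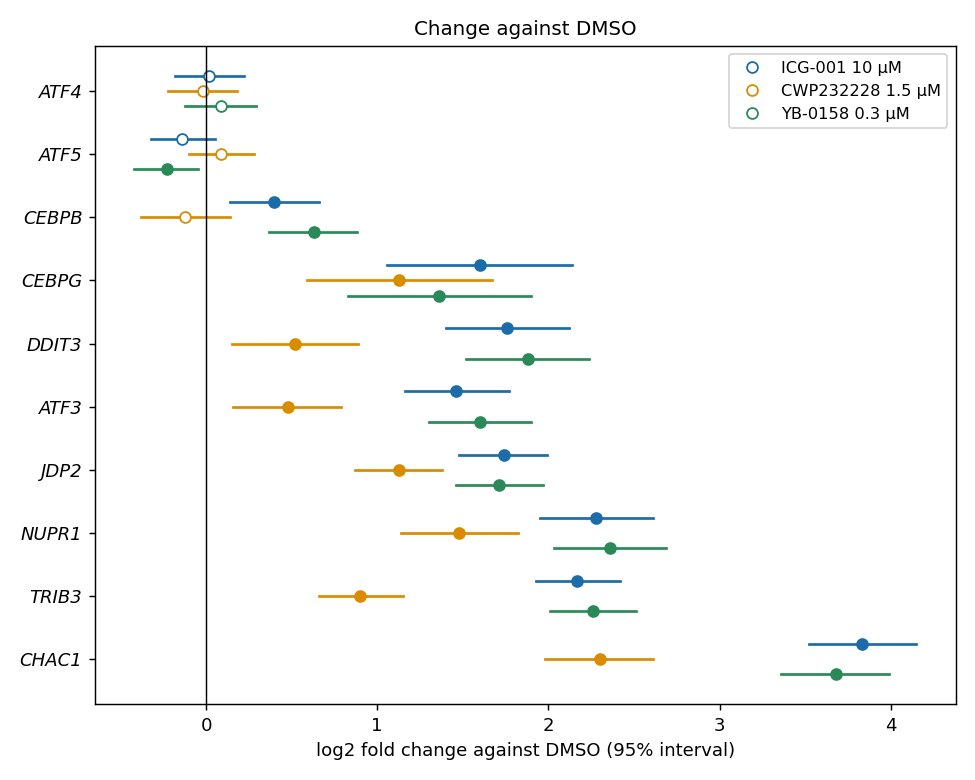
log2 fold change against DMSO with its 95% interval for each gene, with filled points for adjusted p under 0.05 and open points otherwise. ICG-001 (10 µM) and YB-0158 (0.3 µM) lie close together for most genes, CWP232228 (1.5 µM) lies nearer to 0, and ATF4 is at 0.02, -0.018 and 0.085.

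In TPM, a scale per transcript length which allows levels to be compared between genes, ATF4 led in every group, with a mean of 263 with ICG-001, 260 with CWP232228 and 270 with YB-0158, against 242 with DMSO. TRIB3 came next in every group, at 182, 76.5 and 190 TPM with the compounds in the same order, against 37.2 TPM with DMSO. CHAC1 was in place 3 with ICG-001 (58.2 TPM), 6 with CWP232228 (19.9 TPM) and 5 with YB-0158 (50.2 TPM), against 9 with DMSO (3.86 TPM). With ICG-001, CHAC1 (53.1 to 63.3 TPM), CEBPB (51 to 53.2 TPM) and DDIT3 (48.1 to 53.7 TPM) were neighbours whose ranges overlapped. With DMSO, TRIB3 (36.5 to 37.9 TPM) and CEBPB (33.8 to 34.4 TPM) lay side by side without overlap, followed by ATF5 at 23.6 TPM. At the low end, ATF3 was in place 10 with ICG-001 (13.7 TPM) and CWP232228 (7.38 TPM), and NUPR1 was in place 10 with YB-0158 (16.9 TPM, with a range that overlapped that of ATF3) and with DMSO (3.14 TPM). CEBPG is understated on this scale for the reason given above, so the places hold only for the matched reads. In the authors' FPKM the CEBPG mean was 82.1 with ICG-001, above CHAC1 (63.4), and 30.1 with DMSO, above ATF5 (27.4). It also lay above CEBPB with CWP232228 (50.7 and 39.9) and with YB-0158 (82.3 and 62.3).

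The 3 pairs of compounds were compared in the same fit. With CWP232228, 7 of the 10 genes were lower than with ICG-001 and 0 higher (6.82% of all genes called, 3.17% lower and 3.65% higher), and with YB-0158 the same 7 were higher than with CWP232228 and 0 lower (7.78% called, 3.56% higher and 4.21% lower). These 7 are DDIT3, ATF3, CEBPB, TRIB3, CHAC1, NUPR1 and JDP2. Both comparisons share the CWP232228 libraries.

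For CHAC1, the log2 difference of CWP232228 from ICG-001 was -1.54 (95% interval -1.81 to -1.26, adjusted p = 0.00124), and that of YB-0158 from CWP232228 was 1.38 (1.11 to 1.66, adjusted p = 0.00134). For TRIB3 the values were -1.27 (-1.51 to -1.03, adjusted p = 0.00137) and 1.35 (1.12 to 1.59, adjusted p = 0.00103). DDIT3 differed by -1.24 (-1.59 to -0.90, adjusted p = 0.00441) and 1.36 (1.02 to 1.71, adjusted p = 0.00286). These 3 genes showed the widest gaps, with every CWP232228 library below every library of the other compounds. The smallest of the called gaps was that of CEBPB for CWP232228 from ICG-001, at -0.52 (-0.78 to -0.26, adjusted p = 0.0324), and that of JDP2 for YB-0158 from CWP232228, at 0.59 (0.35 to 0.83, adjusted p = 0.0146). The CEBPB call between CWP232228 and ICG-001 was lost with the replicate number as a block (-0.52, adjusted p = 0.0686) and with the GC and length correction (-0.44, adjusted p = 0.0661). In that comparison ATF3, CEBPB, NUPR1 and JDP2 were not called with length-scaled counts or with limma on log2(FPKM + 0.5). Between YB-0158 and CWP232228, CEBPB, NUPR1 and JDP2 were not called under either of these settings.

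The calls of TRIB3 and CHAC1 held in both comparisons with each of the 4 libraries left out. These fits leave 1 library in a group. Fewer of the stress-response genes were called in them, and fewer of all genes as well. Whether the lost calls reflect more than this general loss was not tested. For CWP232228 against ICG-001, the log2 difference ran from -1.29 to -1.2 for DDIT3 and from -1.06 to -0.91 for ATF3. It ran from -0.86 to -0.74 for NUPR1, -0.74 to -0.49 for JDP2 and -0.7 to -0.35 for CEBPB. For YB-0158 against CWP232228 it ran from 1.32 to 1.41 for DDIT3 and from 1.08 to 1.17 for ATF3. It ran from 0.74 to 1.01 for NUPR1, 0.47 to 0.72 for JDP2 and 0.58 to 0.93 for CEBPB.

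Between YB-0158 and ICG-001, 0 of the 10 genes were called, and 0 had an unadjusted p under 0.05; DESeq2 and limma also called 0. Of all genes, 0.00608% (1 gene) was called. The log2 difference was -0.16 for CHAC1 (95% interval -0.42 to 0.11), 0.085 for TRIB3 (-0.15 to 0.32), 0.12 for DDIT3 (-0.21 to 0.45), 0.14 for ATF3 (-0.14 to 0.42) and -0.025 for JDP2 (-0.26 to 0.21). The widest interval was that of CEBPG, at -0.23 (-0.75 to 0.28). These intervals bound the differences but do not show that the compounds act alike.

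CEBPG was not called in the matched counts between CWP232228 and ICG-001 (-0.47, -0.99 to 0.046, adjusted p = 0.264) or between YB-0158 and CWP232228 (0.24, -0.28 to 0.75, adjusted p = 0.572), but on the authors' FPKM limma called both, at -0.69 (adjusted p = 0.0304) and 0.69 (adjusted p = 0.0243). ATF5 ran the other way from the 7 genes, at 0.23 for CWP232228 from ICG-001 (0.039 to 0.41, adjusted p = 0.145) and -0.32 for YB-0158 from CWP232228 (-0.51 to -0.13, adjusted p = 0.0501), and neither passed the test. With the GC and length correction both were called, at 0.27 (adjusted p = 0.0273) and -0.39 (adjusted p = 0.00602), and the ATF5 difference of YB-0158 from CWP232228 was also called with DESeq2 (adjusted p = 0.0293), with only genes of at least 1 CPM (adjusted p = 0.0425) and with only the 2 groups compared (adjusted p = 0.0154). ATF4 differed by -0.037 (-0.24 to 0.16) and 0.10 (-0.098 to 0.30) in the same comparisons.

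**Figure D3:**
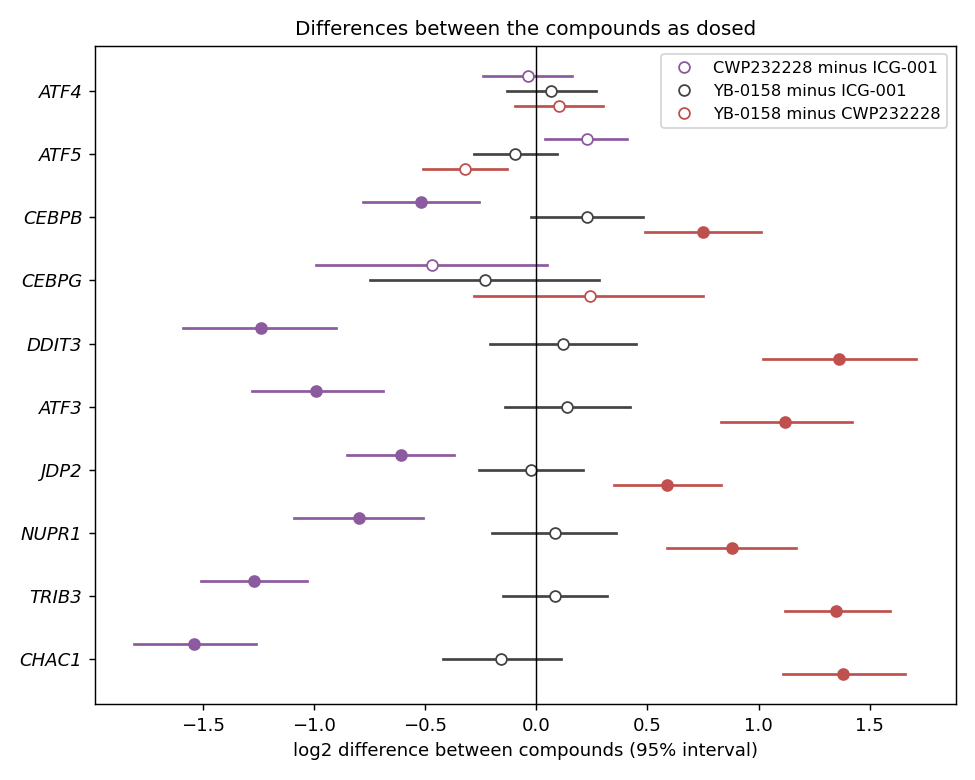
log2 difference between compounds with its 95% interval, for CWP232228 minus ICG-001, YB-0158 minus ICG-001 and YB-0158 minus CWP232228, with filled points for adjusted p under 0.05. Every YB-0158 minus ICG-001 interval includes 0, while 7 genes passed the test in each comparison with CWP232228, and the ATF5 intervals there also leave out 0 without an adjusted p under 0.05.

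Transcript usage, the share of a gene's reads in each of its transcripts, was tested against DMSO for 9 of the genes, as CEBPB has 1 transcript. CEBPG was called with ICG-001 (adjusted p = 0.039) and YB-0158 (adjusted p = 0.0317) and not with CWP232228 (adjusted p = 0.0951), where 3.88%, 3.2% and 3.58% of 11611 genes were called. CEBPG-202, which starts downstream of CEBPG-201, held 71.3% and 58.9% of the matched reads with ICG-001, 52% and 32.8% with CWP232228 and 92.6% and 64.2% with YB-0158, against 6.66% and 5.1% with DMSO. The shares differed widely between replicates but did not overlap with DMSO. They cover only the 40.6% of the authors' count that was matched. The ICG-001 call was lost without either ICG-001 library and the YB-0158 call without either DMSO library, which left 0 genes called.

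No other gene of the group was called for usage. TRIB3-201 held 98.2% to 99.4% of TRIB3 reads and CHAC1-204 held 78.2% to 88.7% of CHAC1 reads in all libraries. ATF4-202 held 59.7% to 66.7% of ATF4 reads. The DDIT3 split was unsteady, with DDIT3-201 at 25.3% and 17.8% with ICG-001, 0% and 16.4% with CWP232228 and 22.7% and 22.9% with YB-0158, against 0% and 33.7% with DMSO.

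**Figure D4:**
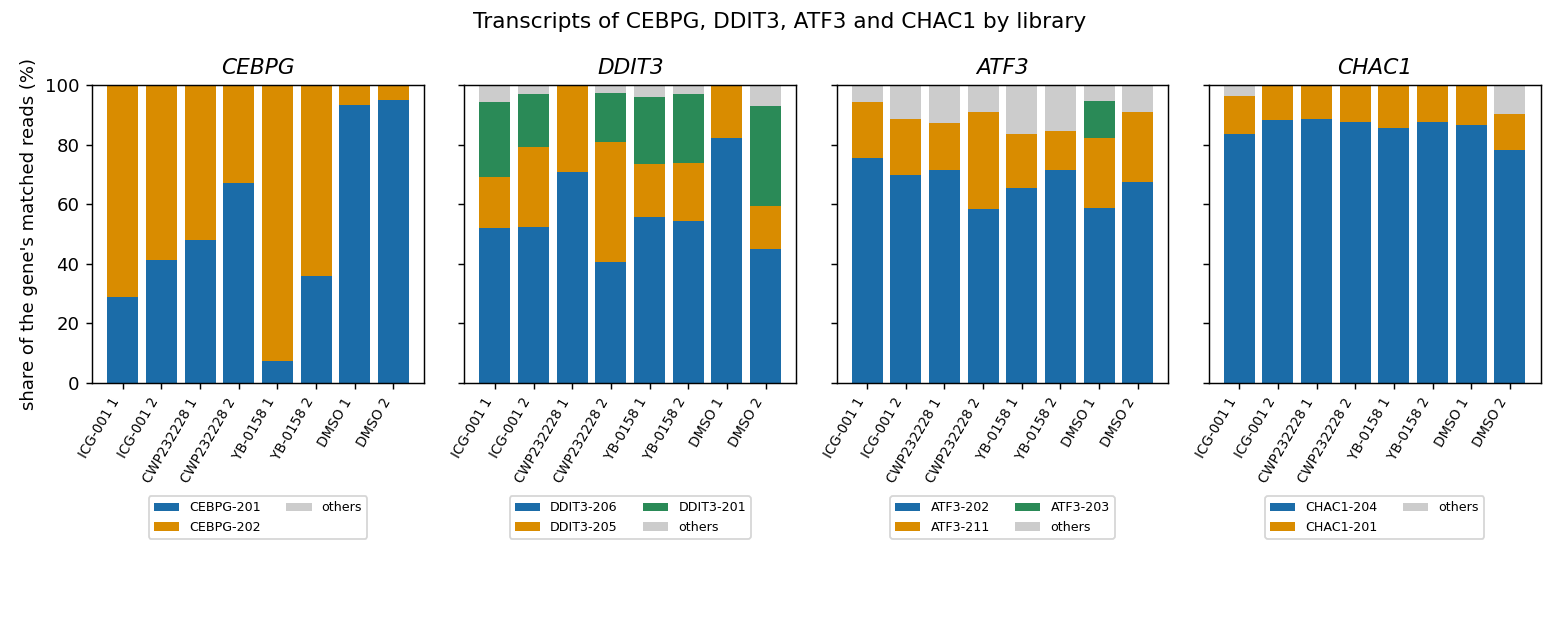
Share (%) of the matched reads of CEBPG, DDIT3, ATF3 and CHAC1 held by each transcript with at least 10% in any library, with the rest in grey. CEBPG-202 has 32.8% or more in every compound library and 5.1% and 6.66% in the DMSO libraries, while CHAC1-204 has 78.2% to 88.7% throughout.

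Other genes of the pathway were read from lists. Of 34 other ATF4 targets, 32 were tested. Among these, 31 rose and 0 fell with ICG-001, 29 rose and 0 fell with CWP232228, and 32 rose and 0 fell with YB-0158. Of all genes, 24.8%, 21.6% and 21.7% were called higher and 24%, 21.2% and 22.1% lower in the same order. The median log2 fold changes of the list were 1.72, 0.98 and 1.65, and those of all genes tested were 0.026, 0.038 and 0.018. PPP1R15A is counted here and also in the eIF2alpha kinase and DDIT3 target lists below. In this list AARS1 (43% of the authors' mean count matched) and GARS1 (44%) are uncertain like CEBPG, and AARS1 was not called with ICG-001 or CWP232228. SLC6A9, a glycine transporter, had 47.5 ± 2.30 CPM with ICG-001, 18.3 ± 2.26 CPM with CWP232228 and 45.6 ± 0.813 CPM with YB-0158, against 1.61 ± 0.168 CPM with DMSO (SD, n = 2 each). NIBAN1, a regulator of translation under stress, rose 11-fold with ICG-001, 4.41-fold with CWP232228 and 11.1-fold with YB-0158. PSAT1, an enzyme of serine synthesis, rose 6.82-fold, 3.98-fold and 5.90-fold with the compounds in the same order. In these 3 genes, as in CHAC1 and TRIB3, the CWP232228 fold was the lowest of the 3.

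Upstream of ATF4, the 9 eIF2alpha kinases, phosphatase subunits and relay genes had 3 called higher with ICG-001, 4 with CWP232228 and 3 with YB-0158, and 0 lower. The share of all genes called higher was 24.8%, 21.6% and 21.7% in the same order, and nothing particular to this small list is read from its counts. PPP1R15A (GADD34), the stress-induced phosphatase subunit, had 112 ± 4.41 CPM with ICG-001, 60.9 ± 6.34 CPM with CWP232228 and 126 ± 4.51 CPM with YB-0158, against 73.8 ± 8.47 CPM with DMSO. It rose with ICG-001 (adjusted p = 0.00184) and YB-0158 (adjusted p = 0.000646), while its log2 fold change with CWP232228 was -0.28 (adjusted p = 0.0594). PPP1R15B, the constitutive subunit, rose 1.50-fold with ICG-001, 1.34-fold with CWP232228 and 1.47-fold with YB-0158, and the kinase EIF2AK2 (PKR) rose 1.70-fold with CWP232228 (adjusted p = 0.0144). Without DMSO replicate 1 the list had more calls with ICG-001 and with YB-0158, and with CWP232228 it had fewer without either CWP232228 library. Calls over all genes moved the same way in these fits, which leave 1 library in a group.

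Among 6 DDIT3 target genes, which also include PPP1R15A, 3 rose with ICG-001, 1 rose and 1 fell with CWP232228 and 3 rose with YB-0158. Of all genes, 24.8%, 21.6% and 21.7% were called higher and 24%, 21.2% and 22.1% lower in the same order, and the CWP232228 counts lie near these shares. TNFRSF10B, the death receptor DR5, rose 1.51-fold with ICG-001 (adjusted p = 0.000635) and 1.53-fold with YB-0158 (adjusted p = 0.00064), and had a fold of 1.16 with CWP232228 (adjusted p = 0.0635). BBC3 (PUMA), a pro-apoptotic BCL2 family member, rose 1.36-fold with YB-0158 and fell with CWP232228 (fold 0.779, adjusted p = 0.0195). With CWP232228, this list had more calls without DMSO replicate 1 and fewer without either CWP232228 library, and calls over all genes moved the same way.

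The targets of ATF6 and XBP1, the other arms of the unfolded protein response, moved in both directions. Of 17, 7 rose and 7 fell with ICG-001, 5 rose and 5 fell with CWP232228, and 7 rose and 6 fell with YB-0158, where the shares of all genes were those just given. Only 38.7% of the authors' mean for PDIA4, which was called lower with each compound, and 59.9% of that for HYOU1, which was not called, were matched. SEL1L, a subunit of the degradation machinery of the endoplasmic reticulum, rose 2.72-fold, 1.87-fold and 2.84-fold with ICG-001, CWP232228 and YB-0158, and HERPUD1, its ubiquitin-like partner, rose 2.29-fold, 1.42-fold and 2.38-fold. CALR, the lectin chaperone calreticulin, had 325 ± 4.35 CPM with ICG-001, 471 ± 5.22 CPM with CWP232228 and 360 ± 4.93 CPM with YB-0158, against 748 ± 78.1 CPM with DMSO, and was called lower with each. With CWP232228, fewer calls of this list were left without CWP232228 replicate 2, and fewer over all genes as well.

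Of 43 other bZIP factors, 38 were tested, with 15 called higher and 10 lower after ICG-001, 11 higher and 14 lower after CWP232228 and 15 higher and 9 lower after YB-0158. The shares of all genes were 24.8% higher and 24% lower with ICG-001, 21.6% and 21.2% with CWP232228 and 21.7% and 22.1% with YB-0158, and the 10 lower with ICG-001, the 11 higher with CWP232228 and the 9 lower with YB-0158 lie near them. CREB5 rose 2.48-fold with ICG-001, 2.84-fold with CWP232228 and 3.17-fold with YB-0158, and ATF6, the sensor factor of the endoplasmic reticulum, rose 2.27-fold, 1.64-fold and 2.31-fold. JUNB, an AP-1 subunit, had 54.5 ± 1.58 CPM with ICG-001, 68.4 ± 2.90 CPM with CWP232228 and 60.6 ± 3.48 CPM with YB-0158, against 139 ± 2.83 CPM with DMSO, and was called lower with each. Fewer calls were left for ICG-001 without ICG-001 replicate 2 and for CWP232228 without either CWP232228 library, and fewer over all genes as well.

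Of 9 close relatives of the 10 genes, 6 were tested. TRIB1, a relative of TRIB3, rose 1.79-fold with ICG-001, 1.45-fold with CWP232228 and 2.03-fold with YB-0158. FOS, a relative of ATF3 and JDP2, was lower, at 38.8 ± 0.103 CPM with ICG-001, 51.7 ± 2.31 CPM with CWP232228 and 40.5 ± 4.31 CPM with YB-0158, against 76.9 ± 0.796 CPM with DMSO. In all, 1 relative rose and 2 fell with ICG-001, 1 rose and 3 fell with CWP232228, and 2 rose and 1 fell with YB-0158. Of all genes, 24.8%, 21.6% and 21.7% were called higher and 24%, 21.2% and 22.1% lower in the same order. Nothing particular to this small list is read from its counts. The list had more calls for ICG-001 without DMSO replicate 1 and fewer for CWP232228 without either CWP232228 library, and calls over all genes moved the same way.

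**Figure D5:**
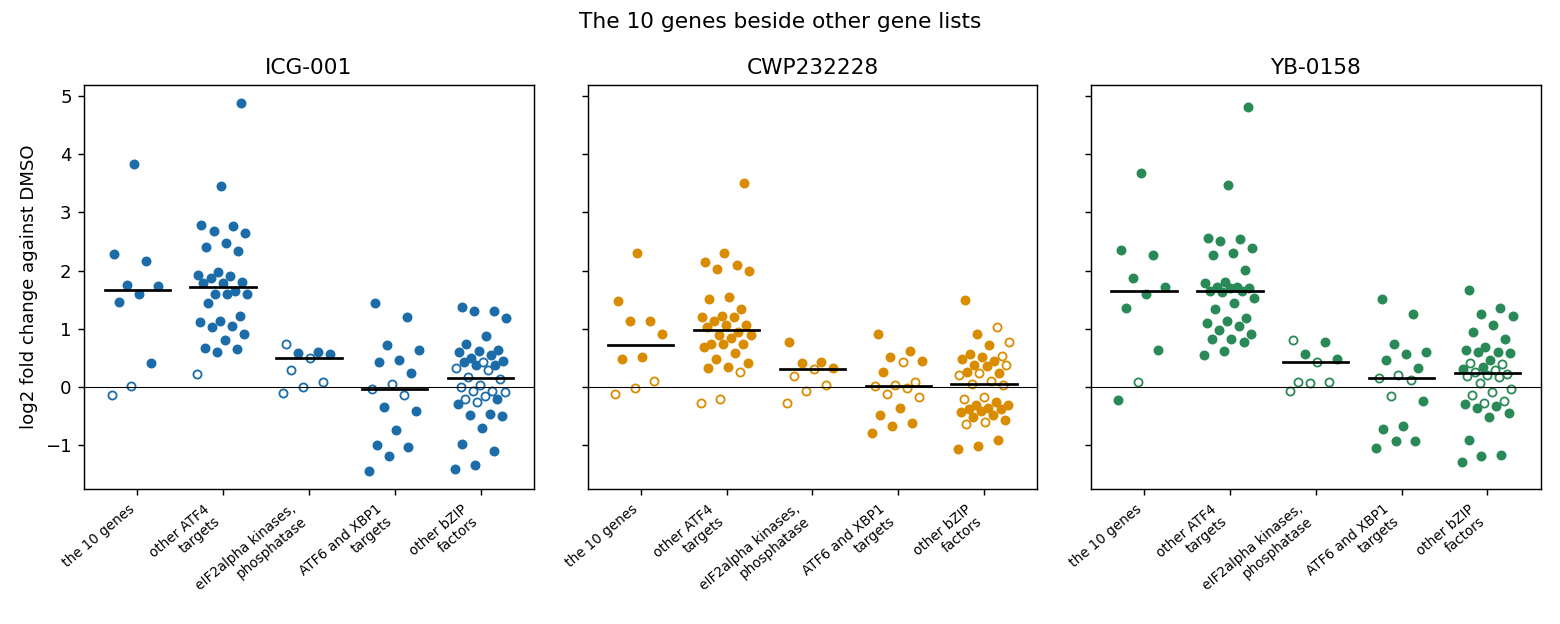
log2 fold change against DMSO of the 10 genes and of 4 gene lists, 1 panel per compound, with filled points for adjusted p under 0.05 and a line at each median. FGF21, at 0 in both DMSO libraries, is drawn at the lower bound that 3 counts per DMSO library allow; the other ATF4 targets have medians of 1.72, 0.98 and 1.65, and the ATF6 and XBP1 targets lie on both sides of 0.

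Outside the group, the genes whose log2 CPM ran most like that of a member over the 8 libraries were found by the root mean square difference after centring each gene, among 11214 candidates. PRSS1 (0.15), NIBAN1 (0.18) and NEBL (0.22) were nearest to CHAC1. PRSS1 has near-identical relatives among the trypsinogens, and only 37.1% of the authors' mean for NEBL was matched, so both are uncertain. IL6R (0.16), CEACAM19 (0.16) and SESN2 (0.19) were nearest to TRIB3, and G0S2 (0.12), STRA6 (0.15) and IFRD1 (0.16, with 70.2% of the authors' mean matched) to DDIT3. ATF4 was closest to BCAN-AS1 (0.028), GRIPAP1 (0.03) and KANSL3 (0.033), whose log2 fold changes against DMSO lay between -0.023 and 0.1. Among the 10 genes themselves, DDIT3 and ATF3 were the most alike pair (0.15), followed by ATF4 and ATF5 (0.18) and by DDIT3 and TRIB3 (0.19). ATF5 and CHAC1 were the least alike (1.6). The measure is not scaled to a gene's spread, so genes that move little lie close. With ICG-001, CWP232228 and YB-0158, the log2 fold changes of ATF4 were 0.02, -0.018 and 0.085, and those of ATF5 were -0.14, 0.09 and -0.23.

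In the authors' deposited tables, 8 of the 10 genes were higher with ICG-001, 5 with CWP232228 and 8 with YB-0158 at an adjusted p under 0.05, and 0 were lower. For CWP232228 the authors' deposited table gives DDIT3 an adjusted p of 0.0559 and ATF3 one of 0.352. For YB-0158 the authors' deposited table gives ATF5 a log2 fold change of -0.21 with an adjusted p of 0.138.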

How the data were processed

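Total RNA of a quality number of 8.0 or more went into TruSeq RNA v2 libraries, which do not mark strand, per the labels' protocols. Salmon 1.3.0, fastp, DESeq2 and the build GRCh38 are named in the submitters' processing notes. The authors deposited, per the file headers, estimated counts and TPM per transcript and library, and for each compound against DMSO a table of genes with the mean signal (normalized counts), log2 fold change, p-value and FPKM per library. The transcriptome release is not given in the sources used here.

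The 228754 quantified transcripts were matched by identifier to GENCODE release 29, which gave 204677 matches (89.5%), and their estimated counts were summed per gene and rounded. Unmatched transcripts took 1.54% to 1.85% of reads and entered no test. For 9 of the 10 genes the sums came to 99.1% to 99.7% of the authors' mean, and for CEBPG to 40.6%. Genes were tested with edgeR 4.0.16 (TMM, filterByExpr, robust quasi-likelihood, R 4.3.3) in 1 model of 8 libraries and 4 groups with 4 residual degrees of freedom, checked on simulated data. P-values were adjusted over all 16449 genes, and 0.05 was the threshold. SE and 95% intervals come from this fit. Transcript usage was tested with diffSpliceDGE (Simes). limma 3.58.1 on log2(FPKM + 0.5) and DESeq2 1.42.0 were alternatives, and the others are listed in the closing section. Levels are CPM after TMM scaling (markers without it), or the deposited TPM summed per gene, and library totals ran from 29071547 to 58489118 estimated reads. Counts of replicate libraries differed by more than sampling noise (chi-square per gene 7.42 to 35.2) and none was averaged, which does not show that they came from separate cultures.

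The 10 genes and the lists were chosen with earlier results of these data known, and no list was tested as a set. List genes could be named if they were among the 3 strongest rises or the 3 strongest falls called in any comparison against DMSO (mean level 1 CPM or above), and the text gives a selection of these.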

Additional observations from a re-analysis of the deposited data

How the results depend on the processing

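For single genes of the group, 1119 values under other settings were compared with those reported. Of these, 980 kept their direction and side of the threshold, 89 kept the direction but were no longer called, 23 kept it and became called, and 27 changed sign. Of the sign changes, 25 were of values called under neither setting, such as CEBPB with CWP232228 (-0.12 as reported, 0.33 under the GC content and length correction), ATF5 with ICG-001 (-0.14 and 0.16) and ATF4 with CWP232228 (-0.018 and 0.15). The other 2 were those of ATF5 with YB-0158, at 0.046 under that correction, with or without the replicate number in the fit; the cause was not tested. The number of genes called between CWP232228 and ICG-001 was 4 with limma on log2(FPKM + 0.5), 4 with limma after leaving out genes under 1 FPKM, which was added after seeing the data, and 3 with length-scaled counts, where 7 were reported. Between YB-0158 and CWP232228 it was 4 with length-scaled counts. With 1 library left out, the calls against DMSO ranged from 7 to 8 with ICG-001, from 4 to 6 with CWP232228 and from 8 to 9 with YB-0158; they ranged from 2 to 4 for CWP232228 against ICG-001 and from 3 to 6 for YB-0158 against CWP232228, and were 0 for YB-0158 against ICG-001.

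Deviations of same-numbered libraries correlated at 0.42, 0.52 and 0.27 between compounds but at -0.35, -0.37 and -0.28 between the compounds and DMSO, so the numbers were not taken to pair all libraries, and a pairing among the compound libraries cannot be told from the labels. With the replicate block, the group had 8 calls with ICG-001, 6 with CWP232228 and 8 with YB-0158 against DMSO, and 6 for CWP232228 against ICG-001 (without CEBPB), 7 for YB-0158 against CWP232228 and 0 for YB-0158 against ICG-001, and the list of relatives had 2 with CWP232228. With the DMSO numbers crossed, a pairing added after seeing the data, the calls were 8, 7 and 9 against DMSO.

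For the lists, DESeq2 gave 5 calls for the eIF2alpha kinase list with ICG-001 and 5 with YB-0158. With CWP232228, the GC content and length correction gave 1 for the DDIT3 targets, 16 for the bZIP factors and 2 for the relatives. With 1 library left out, list calls with ICG-001 ranged from 3 to 6 (eIF2alpha kinases), 16 to 30 (bZIP factors) and 2 to 5 (relatives), and with YB-0158 from 2 to 6 (eIF2alpha kinases). With CWP232228 they ranged from 0 to 6 (eIF2alpha kinases), 0 to 4 (DDIT3 targets), 4 to 11 (ATF6 and XBP1 targets), 12 to 29 (bZIP factors) and 2 to 3 (relatives). The calls of changed usage ranged from 0 to 1 with ICG-001 and with YB-0158. Depth limits NUPR1 most, with 59 reads in a DMSO library.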
